A study of Mus musculus with 6 samples.

Results

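The genes of the cytosolic translation initiation and elongation factors were compared in cultured mouse aortic cells with and without lipopolysaccharide (LPS), the Gram-negative cell-wall component that signals through Tlr4. The members were all protein-coding genes whose symbol begins with Eif1 to Eif6 or with Eef1 or Eef2, apart from the Eif2ak kinases. This gave 64 of the 54532 genes in the count table, and 61 of them had enough counts to be tested. Eif4e1b had 0 counts in every library, and Eif4ebp3 and Eef1a2 were too low to test. The LPS group comprised 3 cultures of wild-type male aortic cells, labelled endothelial, given 500 ng/mL of LPS over a period of 8 h. The Vehicle group comprised 3 cultures of the same cells left for 8 h in starvation medium. Both groups were wild type and male; the labels name that medium for Vehicle only, and no age is given. Isolations 1, 2 and 3 each supplied 1 LPS and 1 Vehicle culture, so LPS 1 and Vehicle 1 share their cells of origin. All values are RNA levels, and neither factor protein nor the rate of translation was measured.

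Translation of most mRNAs begins when eIF1, eIF1A, eIF5, eIF3 and the eIF2-GTP-initiator tRNA complex load onto the small ribosomal subunit, while eIF4F binds the mRNA cap and unwinds the leader. Phosphorylation of eIF2 by the Eif2ak kinases blocks its recharging by eIF2B, and unphosphorylated 4E-BPs hold eIF4E away from eIF4G until the kinase mTORC1 acts on them. In elongation, eEF1A brings aminoacyl-tRNAs to the ribosome, the eEF1B subunits recharge eEF1A with GTP, and eEF2 moves the ribosome along the mRNA. In macrophages, LPS is known to regulate the translation of mRNAs for inflammatory proteins.

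Total counts per library ran from 16509197 to 25082714. Levels are given as CPM, meaning counts set against TMM-adjusted library totals, and per kilobase of the deposited gene length where genes are compared with each other. Several defining endothelial markers were near absent: Pecam1, Cdh5, Kdr, Tek and Vwf stayed under 0.5 CPM in both group means and Cldn5 had 0 counts, and only 4 of 13 endothelial markers could be tested. These were Flt1, Erg, Egfl7 and Esam. Mean CPM in LPS and Vehicle was 52.02 and 59.97 for Flt1, 5.47 and 8.29 for Erg, and 4.50 and 2.95 for Egfl7, with Esam lower still. Erg alone was called, as lower (edgeR adjusted p = 0.0205). With the length offset Erg stayed lower (adjusted p = 0.0221) and Flt1 was called higher (adjusted p = 0.013). Summed TPM of the endothelial list (from the same counts and lengths, scaled to a constant sum) ranged from 19.3 to 23.0 in LPS and from 29.3 to 29.5 in Vehicle. Most of it came from Flt1 and Erg. Of 7 fibroblast markers, 1 rose and 3 fell, with summed TPM of 1263 to 2169 in LPS and 2742 to 3313 in Vehicle. The shares of all tested genes were 24.9% called higher and 24.4% lower. With the length offset, 1 fibroblast marker rose and 1 fell, beside 21.8% and 13.8% of all tested genes. Col1a1 and Col1a2 lost their calls there (edgeR adjusted p = 0.412 and 0.382). Smooth muscle markers summed to 530 to 664 TPM in LPS and 607 to 676 TPM in Vehicle, with 1 of 4 tested called higher. Most of this sum was Acta2, with mean TPM of 441 in LPS and 501 in Vehicle but mean CPM of 274 and 242. Flt1 had mean TPM of 11.1 in LPS and 16.4 in Vehicle, a wider gap than in CPM. All these TPM sums stand lower in LPS, relative to Vehicle, than CPM would place them. Ptprc and Adgre1, which mark macrophages and other leukocytes, had 0 counts, and the macrophage list summed to 5.14 to 9.14 TPM in LPS and 6.75 to 7.504 TPM in Vehicle. The mesothelial and epithelial list summed to 76.0 to 125 TPM in LPS and 50.05 to 60.9 TPM in Vehicle, carried by Krt19. Mitochondrially encoded genes took 1.43 ± 0.199% of counts in LPS and 1.94 ± 0.0482% in Vehicle (SD, n = 3 each). The part of any of these shifts in the factor results was not tested. In bulk RNA, a change in the number of cells of a type and a change in RNA per cell cannot be told apart.

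Most translation factor genes were higher after LPS. By edgeR's quasi-likelihood test, with Benjamini-Hochberg adjustment over all 14508 tested genes and a threshold of 0.05, 42 of the 61 were called higher, 7 lower and 12 neither. Among all tested genes, 24.9% were called higher and 24.4% lower, 49.3% in all. At the median, the 61 factors had a log2 fold change of 0.53, against −0.0031 for all tested genes. Together the members took 2.46, 2.69 and 2.75% of all counts in LPS 1, 2 and 3, against 2.09, 2.09 and 2.20% in Vehicle 1, 2 and 3. Every LPS library exceeded every Vehicle library in this share, with means of 2.63 ± 0.149% in LPS and 2.13 ± 0.0664% in Vehicle.

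Gene by gene, the groups were mostly separate. All 3 LPS libraries lay above all 3 Vehicle libraries for 47 factors, a pattern held by 31.1% of all tested genes, and below them for 10, held by 30.8%. Within isolations, 49 factors were higher in LPS in all 3 pairs (36.6% of all genes) and 10 were lower in all 3 (36.4%). Isolation 1 responded least: the median log2 difference over the factors was 0.38, 0.59 and 0.58 in isolations 1, 2 and 3. Of the 42 factors called higher, 41 had their lowest LPS value in LPS 1, a feature shared with 88.5% of all genes called higher. With the isolation as a replicate block, the same 42 and 7 factors were called. When isolation 2 was left out entirely, which leaves 2 libraries a group, no factor passed the threshold in edgeR, and 36 higher and 4 lower had an unadjusted p below 0.05. Leaving out isolation 1 or 3 gave 41 or 38 higher and 9 or 2 lower. The shares of all tested genes were not computed for these fits, so the counts cannot be set against genes at large.

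**Figure D1:**
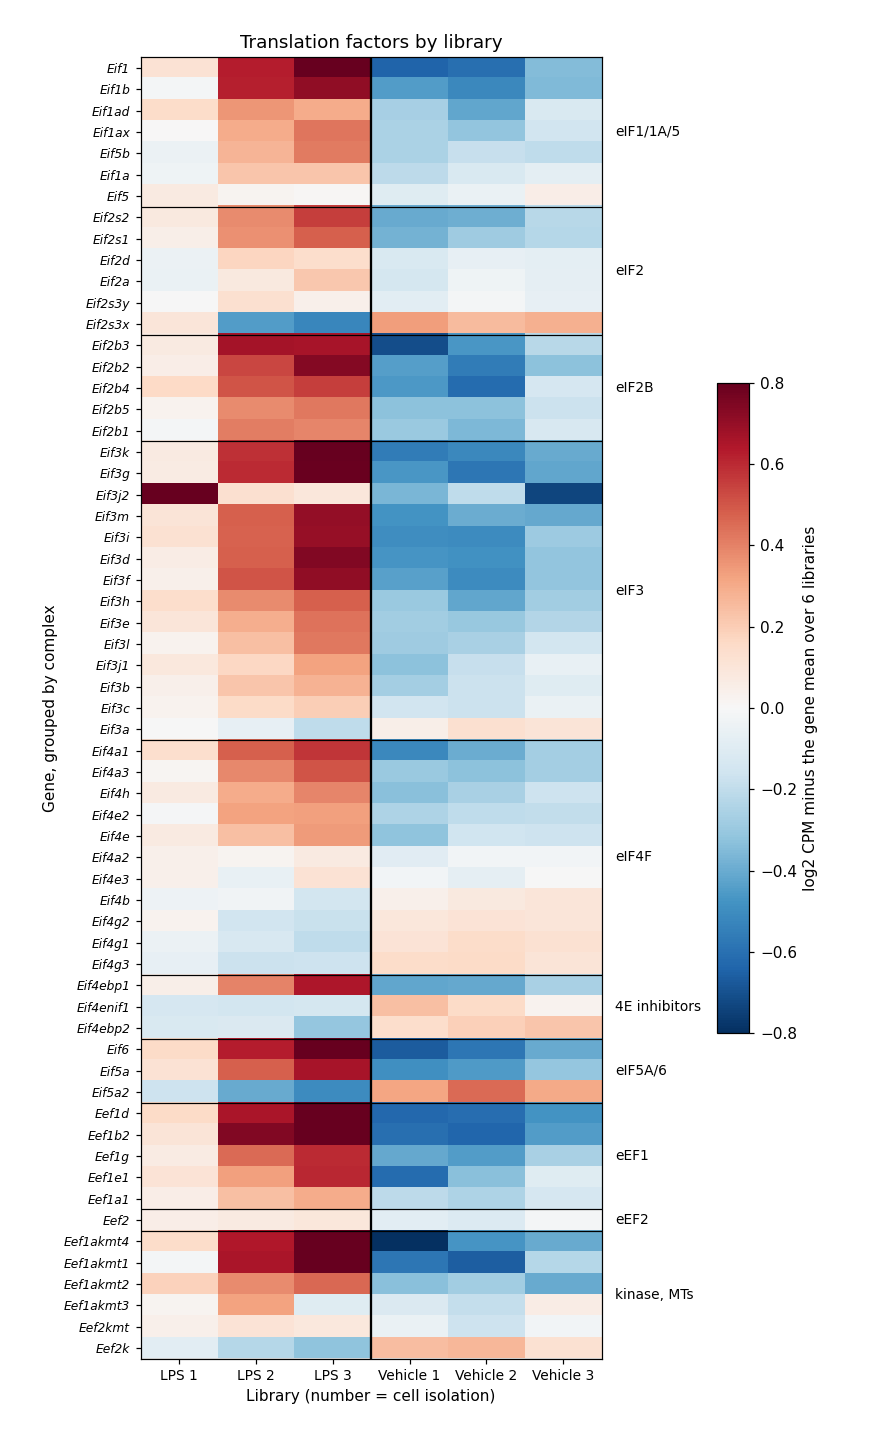
Level of each of the 61 tested factors in each library, as log2 CPM minus the gene's mean over the 6 libraries (colour; red above, blue below, cut at 0.8). Columns are LPS 1 to 3 and then Vehicle 1 to 3, rows are grouped by complex and ordered by fold change. Most rows are red in LPS 2 and LPS 3, paler in LPS 1 and blue in Vehicle, and the 7 factors called lower show the opposite.

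The changes followed transcript length, as they did for genes at large. Over the 61 factors, Spearman's rho between log2 fold change and the length of the longest annotated transcript was −0.70, and over all 14508 tested genes it was −0.57; these describe genes, which are not independent replicates and share the same 6 libraries. Of the 31 factors with transcripts of 880 to 2719 bases, 27 were called higher and none lower, and their median was 0.80 on the log2 scale. All tested genes in that length range had a median of 0.37, with 44.5% called higher and 5.18% lower. Of the 30 factors of 2726 to 8134 bases, 15 were called higher and 7 lower, with a median of 0.22. All genes in the longer range had a median of −0.19, with 12.6% called higher and 33.5% lower. Each of the 7 factors called lower therefore had a transcript above the median length of the family.

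An edgeR fit with a length offset, a smooth trend of log2 deviation over transcript length fitted and removed in each library, expresses each gene against genes of like length. There 40 factors were called higher, 2 lower and 19 neither, where 21.8% of all genes were called higher and 13.8% lower (35.5% in all). Of the 42 factors called higher without the offset, 37 were called higher with it, and Eif4g2, Eif4g3 and Eif5 were added. Eif2s3x and Eif5a2 were the factors that stayed lower. With the replicate block and the length offset together, 44 were called higher and 2 lower (23.9% and 15.6% of all genes, 39.6% in all). Whether the trend arose in the cells, the RNA or the libraries was not tested, so both fold changes are given for the factors it moves by more than 1.5 times. A level scale matters too: on the TPM scale the factors moved by a median of −0.37 log2 units relative to CPM, so that 39 instead of 51 had the higher mean in LPS, and Eif1a, Eif3b and Eif3c, called higher, had a slightly lower mean TPM.

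**Figure D2:**
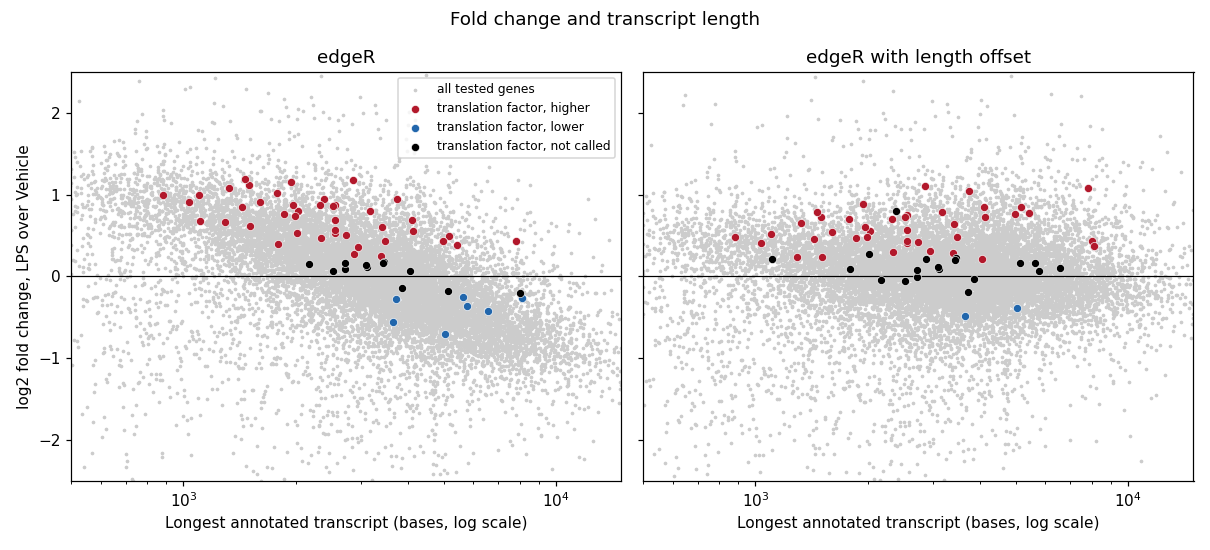
Log2 fold change of LPS over Vehicle against longest annotated transcript (bases, log axis) for all 14508 tested genes (grey) and the 61 factors (coloured by call), without and with the length offset; a few genes lie beyond the axes. The factors lie on the upper side of the grey cloud at most lengths, and the downward slope of the left panel is absent in the right one.

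Among the factors of start-codon selection on the small subunit, 6 of 7 rose and none fell. Eif1, whose product keeps the scanning ribosome from stopping at wrong codons, moved most without the length offset (ENSMUSG00000035530, chr11:100319885-100322096, GRCm38). It had 434, 617 and 721 CPM in LPS 1, 2 and 3, against 257, 263 and 315 CPM in Vehicle 1, 2 and 3. Its LPS 1 value stood lowest of the 3 yet above every Vehicle library. The log2 fold change was 1.09 (edgeR adjusted p = 0.00149, SE 0.17), and 0.65 with the length offset (adjusted p = 0.00273). Its paralog Eif1b rose by 0.91 on the log2 scale (0.41 with the offset) and Eif1ad by 0.53. Eif1ax rose by 0.49 (0.85 with the offset) and Eif5b, the GTPase that joins the ribosomal subunits, by 0.44 (1.08 with the offset). Eif1a, which encodes a copy of eIF1A on chromosome 18, rose by 0.28, and its call was lost with the offset (adjusted p = 0.0693) and without any 1 of LPS 2, LPS 3 or the Vehicle libraries (adjusted p of 0.0671 to 0.144). Adding the replicate block to the offset, edgeR called Eif1a higher (adjusted p = 0.0252). The Eif5b call was lost without Vehicle 1 (adjusted p = 0.0536), and the overlapping Rev1 has 12.04% as many counts.

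Eif5, the GTPase-activating partner of eIF2, was the member of this group without a call. It had 386, 373 and 369 CPM in LPS 1, 2 and 3, against 344, 354 and 381 CPM in Vehicle 1, 2 and 3, so the groups overlapped. With the offset it was called higher at 0.22 (adjusted p = 0.0399). Set per length, the Eif1 to Eif5 ratio was 3.66, 5.38 and 6.35 in LPS 1, 2 and 3, against 2.43, 2.42 and 2.69 in Vehicle 1, 2 and 3. Dividing by a fixed gene length does not remove the length trend from this ratio or from those below. The transcripts have 1322 bases for Eif1 and 4050 for Eif5, and their log2 fold changes with the offset, 0.65 and 0.22, lie closer together. No ratio was computed with the offset. In cells, eIF1 and eIF5 act in opposite directions on start-codon stringency. The Eif1 to Eif5 ratio was higher in all 3 LPS libraries (exact permutation test, 2-sided p = 0.1, the smallest that 3 against 3 can give). Benjamini-Hochberg adjustment over 13 ratios made this 0.13. The permutation tests of all ratios treated the libraries as unpaired and did not use the pairing by isolation.

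The subunits of eIF2 split. Eif2s2 (beta) and Eif2s1 (alpha, which carries the regulatory phosphorylation site) rose, and the X-linked gamma subunit gene Eif2s3x, which holds GTP and the initiator tRNA, fell. Eif2s2 had 219.7, 271 and 305 CPM in LPS 1, 2 and 3, against 158, 159 and 179 CPM in Vehicle 1, 2 and 3. LPS 1 was again the lowest LPS library and no LPS value reached the Vehicle range; the log2 fold change was 0.68 (edgeR adjusted p = 0.00212, SE 0.12). Eif2s1 had 189, 235 and 255 CPM in LPS 1, 2 and 3, against 141, 149.9 and 156 CPM in Vehicle 1, 2 and 3. The groups did not overlap, with a log2 fold change of 0.60 (edgeR adjusted p = 0.0027). With the length offset these became 0.85 and 0.63.

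Eif2s3x (ENSMUSG00000035150, chrX:94188707-94212862), described here because its value stood out, had 103, 70.6 and 66.9 CPM in LPS 1, 2 and 3, against 121, 115 and 117 CPM in Vehicle 1, 2 and 3. LPS 2 and LPS 3 were well under the Vehicle range and LPS 1 just under it. The log2 fold change was −0.56 (edgeR adjusted p = 0.0121, SE 0.15), and −0.49 with the length offset (adjusted p = 0.0142). The call was lost without LPS 2 (adjusted p = 0.0611) and without isolation 3 (adjusted p = 0.0635). Its Y-linked homolog Eif2s3y had 53.3, 58.5 and 55.02 CPM in LPS 1, 2 and 3, against 50.4, 52.97 and 51.04 CPM in Vehicle 1, 2 and 3. The LPS values sat narrowly above the Vehicle ones without a call (log2 fold change 0.11). The X to Y ratio per length was 2.10, 1.32 and 1.33 in LPS 1, 2 and 3, against 2.63, 2.37 and 2.51 in Vehicle 1, 2 and 3 (exact permutation p = 0.1, adjusted p = 0.13). Reads that fit both copies could be counted with either, so the split between them is uncertain. Eif2a and Eif2d, alternative carriers of initiator tRNA, were not called at 0.17 and 0.18. Without LPS 1, edgeR called both higher, at 0.23 (adjusted p = 0.0244) and 0.24 (adjusted p = 0.0212). An offset for deposited gene length also gave calls for both (adjusted p = 0.0131 and 0.00506). Both overlap a gene on the other strand, Serp1 and Rassf5.

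All 5 subunit genes of eIF2B, the exchange factor that reloads eIF2 with GTP, rose, by between 0.53 and 0.94 log2 units. Eif2b3 (gamma) changed most, with 58.01, 87.6 and 87.2 CPM in LPS 1, 2 and 3, against 33.7, 40.04 and 47.2 CPM in Vehicle 1, 2 and 3. The log2 fold change was 0.94 (edgeR adjusted p = 0.0024, SE 0.17) and 1.04 with the offset. Eif2b5, the catalytic epsilon subunit, had 107, 136 and 140.4 CPM in LPS 1, 2 and 3, against 83.3, 83.5 and 92.9 CPM in Vehicle 1, 2 and 3. It rose by 0.56 (edgeR adjusted p = 0.00355). Eif2b1 (alpha) had 45.6, 60.98 and 60.3 CPM in LPS 1, 2 and 3, against 37.5, 35.9 and 42.1 CPM in Vehicle 1, 2 and 3. The groups were separate for each of these genes, and LPS 1 lay nearest to Vehicle. Eif2b1 rose by 0.53 (edgeR adjusted p = 0.00811), the smallest change of the 5, and its call was lost with the offset (0.28, adjusted p = 0.0533). Adding the replicate block to the offset, edgeR called Eif2b1 higher (adjusted p = 0.0289). Eif2b2 rose by 0.91 (0.55 with the offset) and Eif2b4 by 0.80. Eif2b4 shares bases with Snx17, which has 323% as many counts, from chr5:31193227 to 31193430. Without a stated strand setting, reads in that shared stretch cannot be told apart. Summed over the subunits, the level per length was 142 ± 25.1 CPM per kilobase in LPS and 86.7 ± 7.46 in Vehicle (SD, n = 3 each).

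Of the 14 genes of eIF3, the scaffold that holds the small subunit, the other factors and the mRNA together, 13 rose, none fell and Eif3a was not called. The median log2 fold change was 0.76, and 0.65 with the length offset, where 12 were called higher. Eif3k, a peripheral subunit, moved most without the offset (ENSMUSG00000053565, chr7:28971372-28981864), while Eif3j1 had the largest called rise with it (0.77). Eif3k had 152, 216 and 255 CPM in LPS 1, 2 and 3, against 97.9, 101 and 109 CPM in Vehicle 1, 2 and 3. Every LPS value was over the Vehicle range, with a log2 fold change of 1.02 (edgeR adjusted p = 0.00151, SE 0.16) and 0.70 with the offset. Eif3g rose by 1.00 (0.52 with the offset), Eif3m by 0.88, Eif3i by 0.87, Eif3d, which can itself bind the cap of some mRNAs, by 0.87, and Eif3f by 0.86. Smaller rises were those of Eif3h (0.67), Eif3e (0.55) and Eif3l (0.47), with 0.24 for Eif3h and 0.30 for Eif3l under the offset.

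Without the length offset, the large core subunits Eif3a, Eif3c and Eif3b had the 3 lowest fold changes of the complex. This order changed with the offset, where Eif3a (0.16), Eif3h (0.24) and Eif3c (0.28) were lowest. Eif3a, the largest subunit and the one with the most counts, had 483, 463 and 421 CPM in LPS 1, 2 and 3, against 501, 531 and 521 CPM in Vehicle 1, 2 and 3. All LPS values were under the Vehicle range but close to it, and the log2 fold change of −0.18 did not pass the test (edgeR adjusted p = 0.111); it was called lower without LPS 1 (−0.23, adjusted p = 0.0138) and had a value of 0.16 with the offset, also uncalled. Eif3b rose by 0.36 and Eif3c by 0.25. The Eif3b call was lost without LPS 2, Vehicle 1 or Vehicle 2 (adjusted p of 0.0555 to 0.0662), and that of Eif3c without any 1 of LPS 2, LPS 3 or the Vehicle libraries (adjusted p of 0.0563 to 0.147). Eif3j1, the loosely bound subunit, rose by 0.38 (0.77 with the offset), a call lost without Vehicle 1 or Vehicle 2 (adjusted p of 0.0627 and 0.0515). It shares bases with Spg11. Its near copy Eif3j2 had 9.82, 5.07 and 4.94 CPM in LPS 1, 2 and 3, against 3.59, 4.01 and 2.78 CPM in Vehicle 1, 2 and 3. LPS 1 stood far above the other LPS libraries, which were also above Vehicle. The log2 fold change was 0.95 (edgeR adjusted p = 0.0236) and 0.54 without LPS 1 (adjusted p = 0.0594). The call was lost there, without Vehicle 1 or Vehicle 3 (adjusted p of 0.0647 and 0.088) and with the offset (0.80, adjusted p = 0.0599). Adding the replicate block to the offset, edgeR called Eif3j2 higher (adjusted p = 0.0345).

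Per length, Eif3h was the most abundant subunit RNA, at 246 ± 28.8 CPM per kilobase in LPS and 155 ± 7.70 in Vehicle, followed in Vehicle by Eif3b (111) and Eif3a (100.03). Eif3j1 at 18.9 in LPS and 14.5 in Vehicle was the lowest apart from Eif3j2. The deposited lengths differ from those of the main transcripts for some genes, which shifts these levels but not the comparison of LPS with Vehicle within a gene. Summed over the complex, eIF3 RNA stood at 993, 1193 and 1304 CPM per kilobase in LPS 1, 2 and 3, against 768, 766 and 821 in Vehicle 1, 2 and 3.

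**Figure D3:**
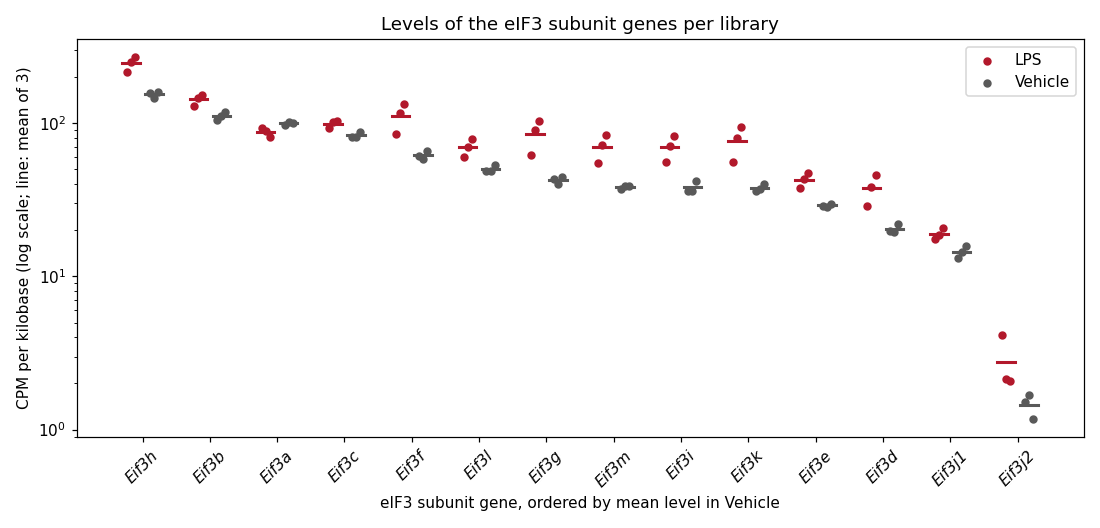
Level of each eIF3 subunit gene per library (CPM per kilobase of deposited gene length, log axis; points are libraries 1 to 3 from left to right, lines the group means), LPS to the left of Vehicle. LPS points lie above the Vehicle points for every gene but Eif3a, and the gap is widest for genes such as Eif3k and Eif3g.

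Within eIF4F and its helpers, Eif4e, Eif4e2, Eif4a1, Eif4a3 and Eif4h rose and the scaffold genes Eif4g1 and Eif4g3 fell. The other 4 of the 11 tested genes were not called; with the length offset 7 rose and none fell. Eif4a1, the main RNA helicase of the complex (ENSMUSG00000059796, chr11:69666936-69672423), had 1006, 1281 and 1366 CPM in LPS 1, 2 and 3, against 643, 696 and 761 CPM in Vehicle 1, 2 and 3. The groups were far apart, with a log2 fold change of 0.80 (edgeR adjusted p = 0.00151, SE 0.13) and 0.79 with the offset. Its paralog Eif4a2 had 545, 538 and 556 CPM in LPS 1, 2 and 3, against 498, 522 and 521 CPM in Vehicle 1, 2 and 3. Those LPS values were only just above the Vehicle ones, and the log2 fold change of 0.089 was not called (edgeR adjusted p = 0.385; −0.0031 with the offset). The ratio of Eif4a1 to Eif4a2 per length was 2.74 ± 0.410 in LPS and 1.68 ± 0.108 in Vehicle, higher in all 3 LPS libraries (exact permutation p = 0.1, adjusted p = 0.13). A processed pseudogene, Eif4a-ps4, had 3279, 2618 and 3427 counts in LPS 1, 2 and 3 and 1907, 2081 and 3049 counts in Vehicle 1, 2 and 3, so part of the helicase reads may have been counted there.

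Eif4e, the cap-binding protein gene, had 196, 219.7 and 235 CPM in LPS 1, 2 and 3, against 149, 166 and 166 CPM in Vehicle 1, 2 and 3. No LPS value reached down to the Vehicle range; it rose by 0.43 (edgeR adjusted p = 0.00514, SE 0.096), and by 0.76 with the offset. Eif4e2, which encodes a cap-binding repressor, rose by 0.44, Eif4a3, the helicase of the exon junction complex, by 0.61 (0.23 with the offset) and Eif4h, a helicase partner, by 0.51. Eif4b, another helicase partner, and Eif4e3 were not called at −0.14 and 0.067, or −0.031 and −0.063 with the offset.

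The 3 scaffold genes had lower counts after LPS. Eif4g1, the main bridge between eIF4E, eIF4A and eIF3 (ENSMUSG00000045983, chr16:20668313-20692884), had 887, 837 and 796 CPM in LPS 1, 2 and 3, against 985, 1012 and 996 CPM in Vehicle 1, 2 and 3. Every LPS value was under every Vehicle value, with a log2 fold change of −0.25 (edgeR adjusted p = 0.0394, SE 0.088), but the call was lost without any 1 of LPS 2, LPS 3 or the Vehicle libraries (adjusted p of 0.0977 to 0.138). Eif4g2, which encodes a scaffold without the eIF4E-binding site, had the most counts of the group, 1337, 1179.6 and 1160.3 CPM in LPS 1, 2 and 3, against 1397, 1418 and 1405 CPM in Vehicle 1, 2 and 3. It too was lower in all LPS libraries without a call (−0.20, edgeR adjusted p = 0.106). Eif4g2 was called lower without LPS 1 (−0.27, adjusted p = 0.00495) and without isolation 1 (−0.28, adjusted p = 0.0208). Eif4g3 fell by 0.27 on the log2 scale (edgeR adjusted p = 0.019), lost without LPS 2, LPS 3, Vehicle 1 or Vehicle 2 (adjusted p of 0.0503 to 0.0953). Their transcripts of 5638, 7995 and 8134 bases are among the longest of the family. Against genes of like length the sign turned for all 3: 0.17 for Eif4g1 (adjusted p = 0.0957), 0.43 for Eif4g2 (adjusted p = 0.00286) and 0.37 for Eif4g3 (adjusted p = 0.00549).

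The promoters of Eif4a1, Eif4e and Eif4g1 are shown because they share a feature, the E-box CACGTG that Myc and related factors bind. Without the length offset these 3 eIF4F genes changed in different directions, but with it the Eif4g1 value was 0.17, uncalled. The sequences are RefSeq windows of 250 bases before the annotated start on GRCm38.p6, 5′ to 3′ on the gene's strand, with E-boxes in capitals and, for Eif4e, also a match to the NRF1 motif between them. They lie at chr11:69672424-69672673 (minus strand), chr3:138527018-138527267 (plus strand; 1 of 2 annotated starts) and chr16:20672477-20672726 (plus strand).
Eif4a1: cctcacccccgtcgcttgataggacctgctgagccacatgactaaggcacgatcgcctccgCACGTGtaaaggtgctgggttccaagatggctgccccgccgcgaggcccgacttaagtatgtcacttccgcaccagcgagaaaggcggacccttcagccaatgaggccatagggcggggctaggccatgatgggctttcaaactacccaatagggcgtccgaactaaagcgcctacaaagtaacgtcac
Eif4e: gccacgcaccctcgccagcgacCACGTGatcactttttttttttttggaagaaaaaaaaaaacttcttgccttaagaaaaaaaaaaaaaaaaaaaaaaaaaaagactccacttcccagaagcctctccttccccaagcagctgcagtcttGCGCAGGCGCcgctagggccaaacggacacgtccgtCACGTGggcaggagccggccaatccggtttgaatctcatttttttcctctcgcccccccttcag
Eif4g1: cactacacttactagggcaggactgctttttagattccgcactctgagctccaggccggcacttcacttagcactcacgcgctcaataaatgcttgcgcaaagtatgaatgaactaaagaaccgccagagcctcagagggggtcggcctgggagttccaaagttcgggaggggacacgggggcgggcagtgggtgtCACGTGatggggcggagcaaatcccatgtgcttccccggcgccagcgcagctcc
Windows of 300 bases, from 250 before to 50 after the start, were found for 48 of the 64 factors. CACGTG was in the windows of 13 of the 48 (27.1%), against 11.6% of 10305 tested genes and 8.09% of all 27025 genes with a window. It was found for 8 of 31 factors called higher and for 3 of 7 called lower, namely Eif4g1, Eif5a2 and Eef2k. Of these 3, Eif5a2 alone was called lower with the length offset. The NRF1 motif was in 16.7% of the factors and 11.3% of tested genes, the ETS motif CCGGAAGT in 16.7% and 9.09%, and the YY1 motif AAGATGGCG in 6.25% and 3.49%. A kappa B motif was found for Eef2k alone, the cAMP response element TGACGTCA for Eef2 alone, and the C/EBP-ATF motif TGATGNAAN for Eef2k and Eif2s3x. Both strands were searched. A match of letters is no evidence of binding.

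The inhibitors of eIF4E moved apart. Eif4ebp1 had 109, 139 and 165 CPM in LPS 1, 2 and 3, against 79.1, 79.4 and 88.2 CPM in Vehicle 1, 2 and 3. LPS 3 was highest and all LPS values exceeded Vehicle, with a log2 fold change of 0.74 (edgeR adjusted p = 0.00246, SE 0.14) and 0.49 with the offset. Eif4ebp2 had 153, 153 and 134 CPM in LPS 1, 2 and 3, against 183, 189 and 193 CPM in Vehicle 1, 2 and 3. All LPS values lay below Vehicle, with a log2 fold change of −0.36 (edgeR adjusted p = 0.00708, SE 0.086), kept without each single library. With the offset the value was 0.07, of opposite sign and uncalled (adjusted p = 0.516); the Eif4ebp2 transcript has 5784 bases and that of Eif4ebp1 1997. The ratio of Eif4ebp1 to Eif4ebp2 per length was 2.51 ± 0.694 in LPS and 1.15 ± 0.0493 in Vehicle, and that of Eif4ebp2 to Eif4e was 0.709 ± 0.111 in LPS and 1.22 ± 0.0477 in Vehicle. Both ratios were separate between the groups (exact permutation p = 0.1, adjusted p = 0.13 each). Eif4enif1, the transporter that carries eIF4E into the nucleus, fell by 0.28 on the log2 scale (edgeR adjusted p = 0.0232); the call was lost with the offset and without LPS 2, Vehicle 1 or Vehicle 2 (adjusted p of 0.0854 to 0.11), and the gene shares bases with Drg1.

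Eif6, whose product keeps the large ribosomal subunit from joining too early (ENSMUSG00000027613, chr2:155819832-155826925), was among the factors with the largest rises. It had 259.9, 361 and 424 CPM in LPS 1, 2 and 3, against 148, 157 and 177 CPM in Vehicle 1, 2 and 3. Every LPS library was well above the Vehicle range, with a log2 fold change of 1.12 (edgeR adjusted p = 0.00144, SE 0.16) and 0.73 with the offset. Eif5a, which helps ribosomes through proline-rich stretches and carries the modified residue hypusine, had 961, 1235 and 1397 CPM in LPS 1, 2 and 3, against 629, 648 and 714 CPM in Vehicle 1, 2 and 3. It rose by 0.85 (edgeR adjusted p = 0.0015, SE 0.14; 0.45 with the offset) with no overlap between groups. Its paralog Eif5a2, described here for its opposite change, had 25.5, 21.6 and 20.2 CPM in LPS 1, 2 and 3, against 35.5, 39.00 and 35.2 CPM in Vehicle 1, 2 and 3. All LPS values were below Vehicle, with the largest decrease of the family on the log2 scale, −0.70 (edgeR adjusted p = 0.00165, SE 0.12), and −0.38 with the offset (adjusted p = 0.00842). The call held without each single library. Eif5a RNA exceeded Eif5a2 RNA 116 ± 33.7-fold per length in LPS and 38.5 ± 3.99-fold in Vehicle (exact permutation p = 0.1, adjusted p = 0.13).

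**Figure D4:**
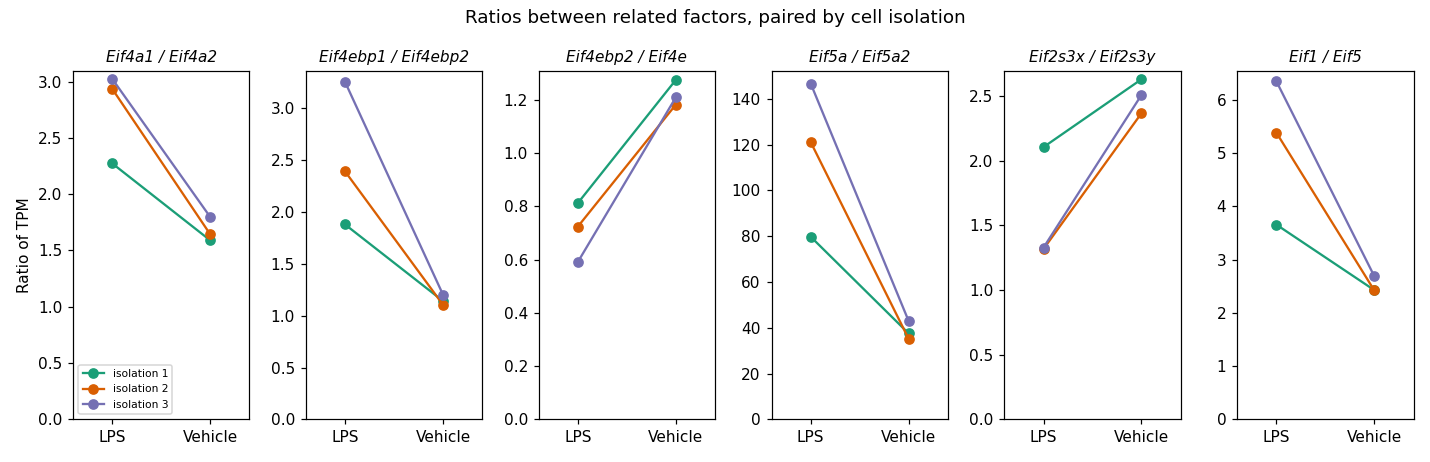
Ratio of TPM between 6 pairs of factors, picked from 13 ratios, LPS left and Vehicle right, with a line for each cell isolation. The ratios keep the length trend, and the permutation tests did not use the pairing by isolation. Among the ratios not drawn, the groups overlapped for Eif4g1 to Eif4g2 (exact permutation p = 0.3), for Eif1 to Eif1b (exact permutation p = 0.2) and for Eif4e to Eif4e2. In every panel the 3 lines run the same way and the LPS and Vehicle points do not overlap; the ratios of Eif4ebp2 to Eif4e and of Eif2s3x to Eif2s3y are lower in LPS, the other 4 higher.

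All 5 tested genes grouped here by name with the eEF1 complex rose. Eef1a1, which encodes the tRNA carrier and is the most abundant member (ENSMUSG00000037742, chr9:78478449-78489151), had 7223, 8243 and 8564 CPM in LPS 1, 2 and 3, against 6038, 5869 and 6347 CPM in Vehicle 1, 2 and 3. LPS values exceeded all Vehicle values, but by less than for its partners: the log2 fold change was 0.40 (edgeR adjusted p = 0.0138, SE 0.11). The call was lost without LPS 2, Vehicle 1 or Vehicle 2 (adjusted p of 0.0576 to 0.0764) and with the length offset (0.094, adjusted p = 0.378). The exchange subunit gene Eef1b2 had 579, 902 and 968 CPM in LPS 1, 2 and 3, against 355, 348 and 395 CPM in Vehicle 1, 2 and 3. LPS 2 and LPS 3 were far above LPS 1 and every Vehicle value, and the log2 fold change was 1.16 (edgeR adjusted p = 0.00144, SE 0.17), or 0.88 with the offset. Eef1d, the second exchange subunit, had 299, 423 and 505 CPM in LPS 1, 2 and 3, against 174, 176 and 193 CPM in Vehicle 1, 2 and 3. It showed the largest change of the complex without overlap, 1.18 (edgeR adjusted p = 0.00144, SE 0.17), and 1.11 with the offset. Eef1g, the structural subunit, rose by 0.76 (0.47 with the offset) and Eef1e1, a member of the multi-synthetase complex, by 0.69. The Eef1b2 to Eef1a1 ratio per length was 0.0993 ± 0.0178 in LPS and 0.0592 ± 0.00184 in Vehicle (exact permutation p = 0.1, adjusted p = 0.13).

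Eef2, the translocase gene, had 2828, 2858 and 2897 CPM in LPS 1, 2 and 3, against 2567, 2521 and 2693 CPM in Vehicle 1, 2 and 3. Its LPS values were above the Vehicle ones in a narrow range, and the log2 fold change of 0.14 was not called (edgeR adjusted p = 0.223, SE 0.091; 0.12 with the offset).

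Many translation mRNAs begin with a terminal oligopyrimidine tract, a C followed by pyrimidines, which makes their translation depend on mTORC1. RefSeq starts of 9 of the 48 factors (18.8%) had, within 2 bases of the start, a C with at least 4 pyrimidines after it, against 12.1% of 10305 tested genes. The 9 were Eef1a1, Eif1ad, Eif2b5, Eif2s3x, Eif2s3y, Eif3b, Eif3f, Eif3l and Eif4g1; 6 of them were called higher, 2 lower and 1 neither. Windows of 30 bases, 10 before and 20 from the start, are shown for an elongation factor, an eIF3 subunit, both eIF2 gamma genes and the scaffold, as examples of each direction, with the run in capitals. They lie at chr9:78481705-78481734 (minus strand), chr7:108934405-108934434 (plus), chrX:94212632-94212661 (minus), chrY:1010585-1010614 (plus) and chr16:20672717-20672746 (plus).
Eef1a1: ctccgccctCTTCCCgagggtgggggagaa
Eif3f: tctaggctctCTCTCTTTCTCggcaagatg
Eif2s3x: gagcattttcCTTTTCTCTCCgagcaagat
Eif2s3y: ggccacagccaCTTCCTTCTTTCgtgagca
Eif4g1: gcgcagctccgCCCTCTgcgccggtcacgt
The runs of 11 bases in Eif3f and in Eif2s3x belong to genes that changed in opposite directions. Whether the cells used these annotated starts was not measured.

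Of the 6 genes for enzymes that act on elongation factors, 3 rose, 1 fell and 2 were not called; with the offset 2 rose and none fell. Eef1akmt4, a lysine methyltransferase of eEF1A, had 11.3, 15.9 and 19.9 CPM in LPS 1, 2 and 3, against 5.50, 7.35 and 7.70 CPM in Vehicle 1, 2 and 3. The groups were apart, with a log2 fold change of 1.19 (edgeR adjusted p = 0.0024, SE 0.22; 0.79 with the offset). It shares bases near its start with Alg3, which has more counts and lies on the other strand. Without a stated strand setting, reads in the shared stretch cannot be told apart. Eef1akmt1 rose by 1.00 (0.48 with the offset), and Eef1akmt2, inside the annotated span of Fgfr2, by 0.68; Eef1akmt2 was uncalled with the offset (0.22, adjusted p = 0.151). Eef1akmt3 and Eef2kmt were not called at 0.16 and 0.16, or 0.073 and −0.049 with the offset. Eef2k, the kinase that inhibits eEF2, had 60.2, 54.6 and 51.2 CPM in LPS 1, 2 and 3, against 75.9, 77.1 and 69.5 CPM in Vehicle 1, 2 and 3. All LPS values were below Vehicle, with a log2 fold change of −0.42 (edgeR adjusted p = 0.00566, SE 0.095), kept without each single library. Its transcript has 6580 bases, and with the offset the value was 0.096, uncalled (adjusted p = 0.325).

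Regulators outside the factor family were read from 5 lists. The shares of all tested genes to set beside their counts are 24.9% higher and 24.4% lower, 21.8% and 13.8% with the offset, and 25.5% each way with the replicate block. Of 15 genes of the eIF2 kinase and phosphatase arm, 5 were called higher, 4 lower and 6 neither (5, 2 and 8 with the offset), both near the shares of all genes. The replicate block added Atf5 (adjusted p = 0.0525 without the block and 0.0301 with it). Eif2ak2, the kinase PKR that senses double-stranded RNA, had 26.8, 21.1 and 11.6 CPM in LPS 1, 2 and 3, against 40.7, 41.4 and 36.2 CPM in Vehicle 1, 2 and 3. It fell by 0.99 on the log2 scale (edgeR adjusted p = 0.00778, SE 0.24; −0.80 with the offset), with LPS 3 lowest and no overlap. Eif2ak3, the kinase of endoplasmic reticulum stress, fell by 0.40 (edgeR adjusted p = 0.0433), lost with the offset (adjusted p = 0.272) and without any 1 of LPS 2, LPS 3 or the Vehicle libraries (adjusted p of 0.0693 to 0.154). Eif2ak1 (0.0086) and Eif2ak4 (−0.26) were not called, with 0.21 and 0.10 under the offset. Gcn1l1, whose product helps to activate Eif2ak4 and which is named here because its call turned, had 195, 171 and 153 CPM in LPS 1, 2 and 3, against 238, 230.1 and 229.7 CPM in Vehicle 1, 2 and 3. It was called lower at −0.43 (edgeR adjusted p = 0.00672) and higher with the offset at 0.23 (adjusted p = 0.0291). Atf4, the transcription factor translated when eIF2 is phosphorylated, had 238, 287 and 322 CPM in LPS 1, 2 and 3, against 158, 168 and 184 CPM in Vehicle 1, 2 and 3; it rose by 0.73 (edgeR adjusted p = 0.00155), and by 0.48 with the offset. Its target Ddit3 rose by 0.92 (edgeR adjusted p = 0.00357; 0.41 with the offset).

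Of 17 genes of the mTORC1 and 4E-BP arm, 3 were called higher, 8 lower and 6 neither; with the offset 4 were higher, 3 lower and 10 neither, near the shares of all genes with the offset. The replicate block removed Rps6kb2 (adjusted p = 0.0493 without the block and 0.0585 with it). Mtor, the kinase itself, fell by 0.71 (edgeR adjusted p = 0.00223) and had a value of −0.059 with the offset, uncalled. Rps6kb1, its target kinase, fell by 0.36 (edgeR adjusted p = 0.0171), lost without LPS 2, Vehicle 1 or Vehicle 2 (adjusted p of 0.0758 to 0.0772) and at 0.045 with the offset. Deptor, an mTOR inhibitor, had 5.15, 2.31 and 2.87 CPM in LPS 1, 2 and 3, against 11.96, 9.49 and 8.64 CPM in Vehicle 1, 2 and 3. It fell by 1.52 (edgeR adjusted p = 0.00225, SE 0.28) and was called lower with the offset too (−0.89). Rheb, the GTPase that switches mTORC1 on, rose by 0.54 (edgeR adjusted p = 0.00242; 0.69 with the offset).

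In the list of termination, recycling and poly(A)-binding factors, 5 of 13 rose and none fell (3 and none with the offset). The replicate block gave 7 higher, adding Pelo (adjusted p = 0.017) and Pabpc4 (adjusted p = 0.0407), and 6 together with the offset. Denr, which acts in ribosome recycling and reinitiation, had 149, 207 and 243 CPM in LPS 1, 2 and 3, against 85.5, 93.2 and 98.4 CPM in Vehicle 1, 2 and 3; it rose by 1.11 (edgeR adjusted p = 0.00144; 1.26 with the offset). Etf1, the release factor, and Pabpc1, the poly(A)-binding protein, both had log2 fold changes of 0.21 without a call (edgeR adjusted p = 0.0604 and 0.0954); Etf1 was called higher with the offset (0.30, adjusted p = 0.0127). Of 9 genes that modify eIF5A and eEF2, 5 rose and 1 fell (3 and 1 with the offset). Dohh, which completes the hypusine of eIF5A, had 19.5, 29.6 and 33.7 CPM in LPS 1, 2 and 3, against 11.5, 10.1 and 13.1 CPM in Vehicle 1, 2 and 3; it rose by 1.25 (edgeR adjusted p = 0.0015; 0.85 with the offset). Dph6, an enzyme of the diphthamide of eEF2, fell by 0.65 (edgeR adjusted p = 0.00722). Of 10 mitochondrial translation factors, 3 rose and none fell, near the share of all genes called higher. They were led by Tsfm at 0.84 (edgeR adjusted p = 0.00208; 0.41 with the offset). With the offset 3 were again called higher, with Gfm1 in place of Mtrf1.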

How the data were processed

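RNA of 6 cultures was sequenced as paired ends; per the labels' protocols it was total RNA extracted with TRIzol. Per the submitters' processing notes, HISAT2 was the aligner and GRCm38 (mm10) the build; how reads were counted, on which strand and with which annotation was not given in the sources used here, nor were filters. The authors deposited raw counts per gene, not normalised, with a gene length. The columns of M1 to M3 without treatment in their names were taken as Vehicle by elimination, and 27 names turned into dates were restored. Longest transcripts come from GENCODE M21, which held 99.774% of the IDs. Tests used edgeR 4.0.16 in R 4.3.3 (TMM, filterByExpr by group, 14508 genes kept; 2-sided), with SEs from the fit. Alternatives were DESeq2 1.42.0, limma-voom (limma 3.58.1), other scalings and filters, a replicate block, length offsets (natural spline, 5 degrees of freedom), a threshold of 0.01, and leaving out each library or isolation; TPM was added after seeing the data. The fits were also run on simulated counts, which held no length trend and no isolation effect. That simulation therefore could not check how the length offset or the replicate block handle such effects.

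The labels state that a number is 1 isolation, so it pairs the libraries; deviations from group means correlated across genes by 0.0958, −0.0450 and 0.206. A count of 0 allows 3 counts, or 0.117 to 0.188 CPM; this covers counting error only. Named genes were, per complex, the called member with the largest change, the most abundant by CPM and a fixed panel, and, per regulator list, the largest called change in each direction and a fixed panel. Members, lists and the length offset were chosen with earlier results of these data known. Of the listed regulators, Gcn1 was matched under its older symbol and Mtrfr was not found. Of the tested factors, 34 overlap another gene, 11 of them a gene with at least 10% of their counts.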

Additional observations from a re-analysis of the deposited data

How the results depend on the processing

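The numbers of factors called higher and lower, 42 and 7, were the same with DESeq2, limma-voom, DESeq2 size factors, a filter of 1 CPM, protein-coding genes alone and the replicate block in edgeR or DESeq2. In edgeR the block changed the calls of Atf5, Rps6kb2, Pelo and Pabpc4 among the regulators, as given above, and of the markers Col3a1 (adjusted p = 0.0049) and Egfl7 (adjusted p = 0.0412), and no other of these genes. Library sizes alone gave 40 and 7, and no filter 40 and 6. A threshold of 0.01 gave 35 and 3. The length offset gave 40 and 2, with the replicate block 44 and 2, and the offset for deposited gene length 44 and 2. Leaving out 1 library or 1 isolation gave 0 to 43 higher and 0 to 9 lower; over single libraries alone, 35 of the 42 higher and 3 of the 7 lower calls were kept throughout. Fewer libraries leave less power, and the cause beyond that was not tested. Shares of all tested genes were computed only for the main fit, the length offset, the replicate block in edgeR and both together. The counts under the other settings describe the factors alone.

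Among the factors, 9 signs turned under the length offset. Signs turned under the length offset, the length offset with block and the deposited-length offset, in that order, for Eif4g1 (0.17, 0.17 and 0.068), Eif4g2 (0.43, 0.43 and 0.28), Eif4g3 (0.37, 0.37 and 0.25) and Rps6kb1 (0.045, 0.046 and 0.046), and under the first pair for Eif4ebp2 (0.070 and 0.070) and Eef2k (0.096 and 0.096). The other 4 factors whose sign turned were uncalled in both fits, namely Eif3a, Eif4a2, Eif4e3 and Eef2kmt. Of the regulators called without the offset, Gcn1l1, Rptor (0.22), Tsc2 (0.091) and Mcts1 (−0.17) turned too. On the TPM scale the log2 ratio of means was −0.0946 for Eif1a, −0.00709 for Eif3b and −0.11 for Eif3c. The cause of these turns was not tested. Depth limits Eif4ebp3 and Eef1a2, at a few counts a library.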
